A study of Mus musculus with 7 samples.

Results

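Among 93201 accessible regions of chromosomes 1 to 19 found in freshly isolated mouse muscle stem cells (MuSCs), 13658 overlapped the window of 1 kb on either side of a transcription start site (TSS) of a protein-coding gene, and 1192 of those promoter regions (8.73%) had a peak in only 1 to 6 of the 7 ATAC-seq libraries. These 1192 partly called promoter regions are described here. They were found by joining the broad peaks of the 7 libraries wherever peaks overlapped by 1 bp or more and keeping promoter regions that at least 1 library called and at least 1 library did not. The presence or absence of a peak chose the regions, so values by the number of libraries with a peak are descriptions with no test. The rule did not use which library had the peak, its genotype or its tags, and tests below are over libraries. The other 12466 promoter regions were called in all 7 libraries. By the number of libraries with a peak, 296 partly called promoter regions had 1 library, 163 had 2, 151 had 3, 153 had 4, 167 had 5 and 262 had 6. Of all 93201 regions 44% were called in 1 to 6 libraries, and of the 79543 regions away from promoters 50.1% were.

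ATAC-seq marks open chromatin with a transposase that inserts sequencing adapters where DNA is not wrapped in nucleosomes, and a peak is a stretch where insertions exceed the local background. Promoters of widely used genes usually lie in CpG islands, which stay free of nucleosomes in most cell types whether or not the gene is strongly transcribed. Promoters of tissue-restricted genes are more often CpG-poor and open mainly in the cells that use them. MuSCs are the quiescent stem cells of skeletal muscle, marked by the transcription factor Pax7, and on activation they divide and give rise to myoblasts that fuse into contractile fibres.

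The 7 libraries were each made from 5000 sorted hindlimb MuSCs of male mice aged 5–6 weeks, 4 Nedd4L-cKO and 3 WT. Nedd4L-cKO mice carried floxed Nedd4L alleles and a Cre recombinase expressed from the Pax7 locus, on a C57BL/6 background. Nedd4L is a ubiquitin ligase. The Cre acts in every Pax7-expressing cell and its descendants, muscle fibres included, and it removes an exon needed for catalysis while the gene can still be transcribed. Whether the WT mice carried the Cre allele is not given in the sources used here. The sort kept ITGA7-positive cells and removed cells positive for CD31, CD45, CD11b or SCA1. The comparison of the genotypes asks how the loss of Nedd4L affects chromatin accessibility. The peak lists hold no measure of the deleted exon, and the outer start of Nedd4l had no region in any library, so they give no check of the knockout.

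The peak caller kept between 14.4 M and 20.1 M tags (M, 1000000) per library, of 28.4 M to 42.4 M read. All 20 MuSC marker genes and all 30 cell division genes on the lists had a promoter region called in all 7 libraries, among them Pax7, Myf5 and Calcr, and none of the 20 immune cell genes had a region in any library. WT replicate 3 was the only library sequenced on lane 2. In no pair of libraries did any peak agree in both ends and in pileup, so none was a copy of another.

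A missing peak says that the caller's threshold was not met, not that the promoter was closed. Of the partly called promoter regions, 242 (20.3%) lay at a gene that also had a promoter region called in all 7 libraries, so that gene was open in every library at another place. The other 950 (79.7%) lay at no such gene. Of 20232 genes with a start site, 13117 (64.8%) had a region called in all 7 libraries, 928 (4.59%) had partly called regions only and 6187 (30.6%) had no region. In bulk material of 5000 cells, fewer cells with an open promoter and a promoter less open in each cell cannot be told apart.

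The bases upstream of 8 of these start sites are shown because CpG content varied widely among partly called promoters. Each run is the 250 bases before a RefSeq start (GRCm38.p6), read 5′ to 3′ on the strand of the gene, with CpG dinucleotides in capitals. In each case the partly called region overlapped the printed bases in whole or in part. The first 3 genes encode muscle contraction or energy proteins and were CpG-poor.
Ckm, chr7:19410844-19411093, plus strand: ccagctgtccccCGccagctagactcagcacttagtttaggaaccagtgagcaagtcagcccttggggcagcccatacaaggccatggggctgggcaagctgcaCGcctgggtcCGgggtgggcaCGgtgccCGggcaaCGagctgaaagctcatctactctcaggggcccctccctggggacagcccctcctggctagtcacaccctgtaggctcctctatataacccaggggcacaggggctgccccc
Myl2, chr5:122092474-122092723, plus strand: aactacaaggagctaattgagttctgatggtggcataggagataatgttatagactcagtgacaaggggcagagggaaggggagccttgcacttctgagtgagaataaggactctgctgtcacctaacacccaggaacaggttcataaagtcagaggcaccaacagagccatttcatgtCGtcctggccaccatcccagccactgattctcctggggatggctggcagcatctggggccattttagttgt
Tnnt2, chr1:135836084-135836333, plus strand: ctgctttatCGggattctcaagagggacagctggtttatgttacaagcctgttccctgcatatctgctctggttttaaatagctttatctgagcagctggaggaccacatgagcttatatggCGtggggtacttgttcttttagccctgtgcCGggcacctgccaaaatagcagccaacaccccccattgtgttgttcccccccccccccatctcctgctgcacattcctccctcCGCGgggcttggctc
Hapln2, a gene of a brain extracellular matrix protein, was CpG-poor and had the second strongest region among those of 4 libraries.
Hapln2, chr3:88027512-88027761, minus strand: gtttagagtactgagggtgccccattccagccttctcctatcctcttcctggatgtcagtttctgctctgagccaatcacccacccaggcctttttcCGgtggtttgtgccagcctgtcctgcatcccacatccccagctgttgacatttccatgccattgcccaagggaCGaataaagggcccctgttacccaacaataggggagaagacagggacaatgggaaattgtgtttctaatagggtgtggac
BC016579 had intermediate CpG content and was called in all 3 WT libraries and in none of the Nedd4L-cKO libraries.
BC016579, chr16:45654119-45654368, minus strand: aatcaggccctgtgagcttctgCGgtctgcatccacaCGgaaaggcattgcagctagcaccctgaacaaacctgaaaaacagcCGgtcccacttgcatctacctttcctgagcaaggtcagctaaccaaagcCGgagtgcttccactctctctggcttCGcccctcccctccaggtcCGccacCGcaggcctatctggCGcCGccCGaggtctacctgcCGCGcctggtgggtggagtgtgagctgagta
The last 3 were CpG-rich: Elavl4, a neuronal RNA-binding protein, Hddc3, a hydrolase, and Pgf, placental growth factor.
Elavl4, chr4:110351912-110352161, minus strand: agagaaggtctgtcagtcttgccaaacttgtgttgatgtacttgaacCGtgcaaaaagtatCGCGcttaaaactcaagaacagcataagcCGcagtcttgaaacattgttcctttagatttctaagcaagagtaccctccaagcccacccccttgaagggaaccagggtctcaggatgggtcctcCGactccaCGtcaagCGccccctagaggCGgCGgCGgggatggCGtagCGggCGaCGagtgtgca
Hddc3, chr7:80342887-80343136, plus strand: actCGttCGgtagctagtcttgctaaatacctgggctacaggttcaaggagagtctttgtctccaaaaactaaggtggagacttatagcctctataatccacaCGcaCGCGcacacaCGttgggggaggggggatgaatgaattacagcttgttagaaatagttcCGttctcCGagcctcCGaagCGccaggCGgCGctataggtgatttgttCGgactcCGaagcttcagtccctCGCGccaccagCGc
Pgf, chr12:85177314-85177563, minus strand: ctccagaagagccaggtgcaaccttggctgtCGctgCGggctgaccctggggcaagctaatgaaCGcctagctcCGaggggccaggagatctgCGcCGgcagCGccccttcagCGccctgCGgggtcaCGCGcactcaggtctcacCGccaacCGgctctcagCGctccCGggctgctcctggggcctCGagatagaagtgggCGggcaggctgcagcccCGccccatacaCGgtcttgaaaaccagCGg

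The ratio of observed to expected CpG over the 300 bases around these starts was 0.0509 at Myl2, 0.0987 at Hapln2, 0.226 at both Ckm and Tnnt2, 0.455 at BC016579, 0.704 at Pgf, 0.882 at Hddc3 and 0.944 at Elavl4. None of the 8 upstream stretches held the letters TATAAA. The E box letters CANNTG, which basic helix-loop-helix factors such as MyoD recognise, occurred 4 times upstream of Tnnt2 and once upstream of Ckm and of Myl2. These letters are frequent: 68.7% of all RefSeq promoters of this length held them.

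Of the 1192 regions 240 had no start in the promoter sequence table. Over the RefSeq promoters with a sequence, partly called starts lay between constant and uncalled starts in CpG content. A promoter was called high CpG when its observed-to-expected CpG ratio was at least 0.6 and its GC content at least 55%, and low CpG when the ratio was under 0.4. Low CpG promoters made up 13.01% of 12780 starts called in all 7 libraries, 55.2% of 938 starts called in 1 to 6 and 86.9% of 6367 starts not called. When peaks needed a score of at least 5 the shares were 9.10%, 32.9% and 79.7%, in the same order. High CpG promoters made up 63.4%, 21.5% and 2.81% of the same sets. The median CpG ratio was 0.766, 0.367 and 0.176. Within the partly called starts the low CpG share was 66.4% for starts called in 1 library and 48.6% for starts called in 6, with 63.6%, 55.9%, 48.8% and 45.8% for 2, 3, 4 and 5. Even the starts called in 6 libraries therefore had more than 3 times the low CpG share of the starts called in 7.

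**Figure D1:**
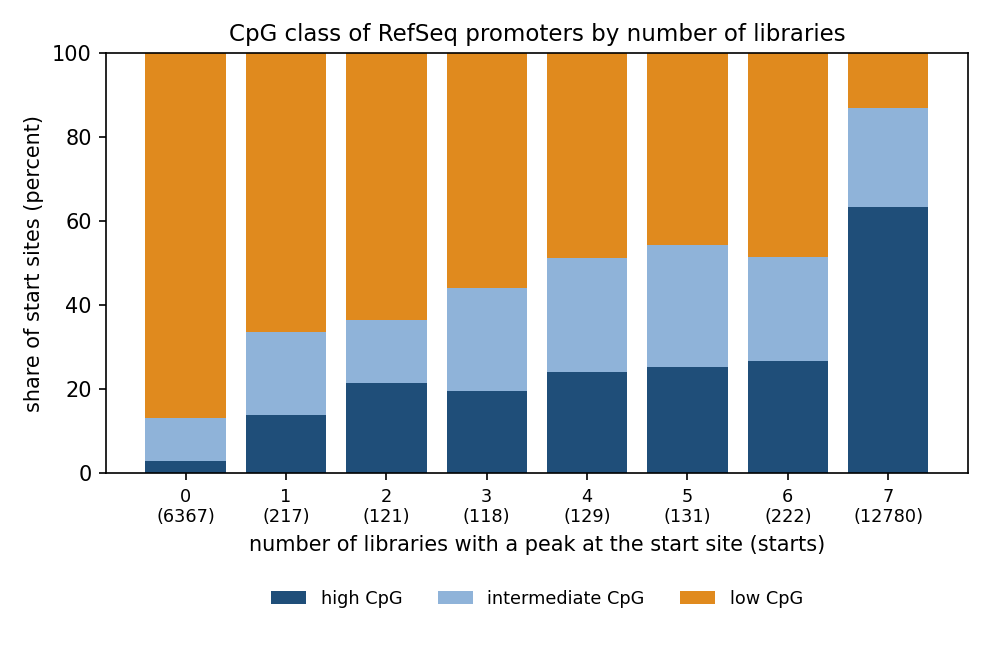
Share of RefSeq start sites (percent, vertical axis) in the high, intermediate and low CpG class, by the number of libraries with a peak at the start (horizontal axis, with the number of starts). The low CpG share was 86.9% with 0 libraries, between 45.8% and 66.4% with 1 to 6, and 13.01% with 7.

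Short motifs followed the same order for some letters and not for others. The GC box GGGCGG, searched on both strands like all motifs here, was present in 65.8% of constant, 36.7% of partly called and 10.9% of uncalled promoters, against 47.0% of all. The ETS core CCGGAAG was present in 17.2%, 3.94% and 2.40%, against 11.9% of all. Both sets of letters hold a CpG and so overlap the CpG count. The TATA box letters TATAAA were present in 6.53%, 10.9% and 25.4%, against 12.7% of all, and the CCAAT letters in 37.2%, 32.6% and 40.8%, against 38.1% of all. E box letters were present in 62.6%, 75.9% and 79.8%. The AP-1 letters TGANTCA were present in 4.66%, 9.17% and 11.6%, against 7.06% of all. These shares describe the letters within 300 bases and say nothing of binding.

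Partly called starts were rarely part of a bidirectional promoter. A start of another gene on the opposite strand lay within 1 kb of 22 of 1158 partly called starts (1.90%), of 2301 of 15295 constant starts (15.04%) and of 77 of 7407 uncalled starts (1.04%). Of all 23860 starts, 2400 (10.06%) had such a neighbour. Opposed starts this close have overlapping windows, so a single constant region can make both of them constant. The low share of partly called starts can thus follow in part from the rule.

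Peaks in partly called promoter regions were weak. The median over regions of the peak score, given as −log10 of the q-value, was 2.04 with quartiles of 1.68 and 2.56, against 13.8 for promoter regions called in all 7 libraries, and the broad peak threshold of q = 0.1 corresponds to 1. The score was 1.67 for regions of 1 library, 1.83 for 2, 1.90 for 3, 2.06 for 4, 2.19 for 5 and 2.43 for 6. Between 6 and 7 libraries the median was thus 2.43 on one side and 13.8 on the other. Regions called in 1 to 6 libraries away from promoters had a median of 2.02, close to the promoter value of 2.04. Constant regions away from promoters had a median of 5.22. A score of 5 or more in at least 1 library was reached by 80 of the 1192 partly called promoter regions (6.71%), 51 of them with 6 libraries, and by 94.6% of the constant ones.

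Length, enrichment and pileup were also lower than in constant promoter regions, and length rose with each added library. The merged region was 338 bp long in the median for 1 library, 521 bp for 2, 667 bp for 3, 738 bp for 4, 786 bp for 5 and 1026.5 bp for 6, and 1543 bp for all 7. A merged region grows with the number of peaks joined, and the median length of the single peaks was 338 bp for 1 library, 565.5 bp for 6 and 1299 bp for 7. Fold enrichment over the local background was 2.98 in partly called and 4.60 in constant promoter regions. The tag pileup was 8.74 and 37.7. In promoter regions of 6 libraries the enrichment was 3.17 and the pileup 9.37. A narrow peak, called at the stricter threshold of q = 0.05, was present in 36.8% of regions of 1 library, 70.6% of those of 2 and all of those of 5 and 6. A narrow peak in any calling library was enough, so this share can rise with the number of libraries alone.

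**Figure D2:**
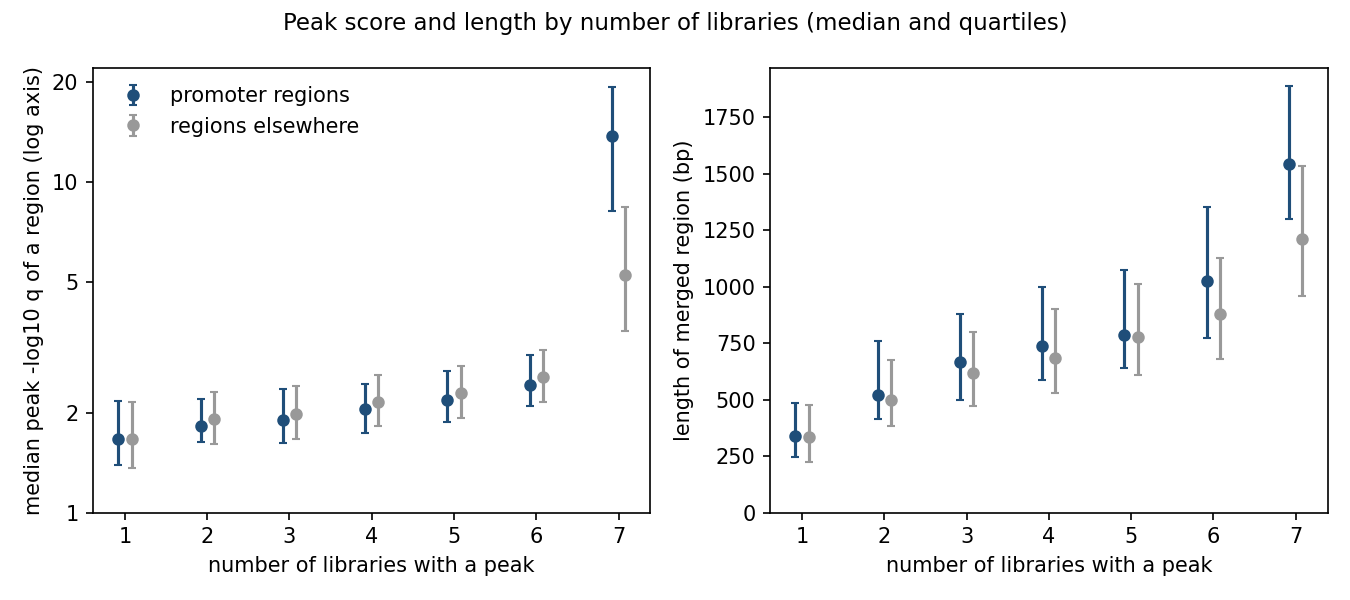
Median and quartiles over regions of the peak score (left, −log10 of the q-value, log axis) and of the merged length in bp (right) by the number of libraries with a peak, for promoter regions (blue) and regions elsewhere (grey). Promoter scores lay between 1.67 and 2.43 for 1 to 6 libraries and at 13.8 for 7.

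Many partly called regions lay beside the start site, not over it. The region covered a start in 57.5% of cases, from 33.4% for 1 library to 77.1% for 6, against 94.9% of constant promoter regions. Cover was scored on the merged region, which grows with the number of peaks joined. A longer region is more likely to reach a start, so these shares depend on length as well as place. Of the 507 that did not cover a start, 56.0% lay on the downstream side. The window of 1 kb set the edge of the group: the 56 regions with the nearest start at 900 to 1000 bp had a median score of 1.93 in a median of 2 libraries, and the 49 partly called regions just outside, within the next 100 bp, had 2.03 and 2.

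A minority of the regions had high pileup and low enrichment. With a limit of 20 tags set after the values were seen, 105 regions (8.81%) had a median pileup of 20 or more, with a median of 25.5 tags but a fold enrichment of only 2.18. The nearest region called in all 7 libraries lay at a median of 1.78 kb from them, and within 1 kb of 33.3% of them. The 1087 regions of lower pileup had an enrichment of 3.02, and a constant region lay at a median of 10.3 kb and within 1 kb of 5.98%. Hddc3, Cilp2, a cartilage matrix gene, and H4c9, a histone H4 gene, were of the high pileup kind, at 49.6, 42.2 and 29.0 tags and 2.15-, 2.17- and 2.19-fold. Genes with partly called regions only were also nearer to constant regions than uncalled genes: the nearest one lay at a median of 11.8 kb from the start of the 928 genes and 51.9 kb from that of the 6187 genes, and within 10 kb of 45.8% and 24.1%.

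The gene classes differed in how often their promoters were partly called. Of all genes with a start site 4.59% had partly called regions only, and this share is the background for each class below. Lists of marker genes and families defined by the start of the gene symbol were described by counts alone.

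**Figure D3:**
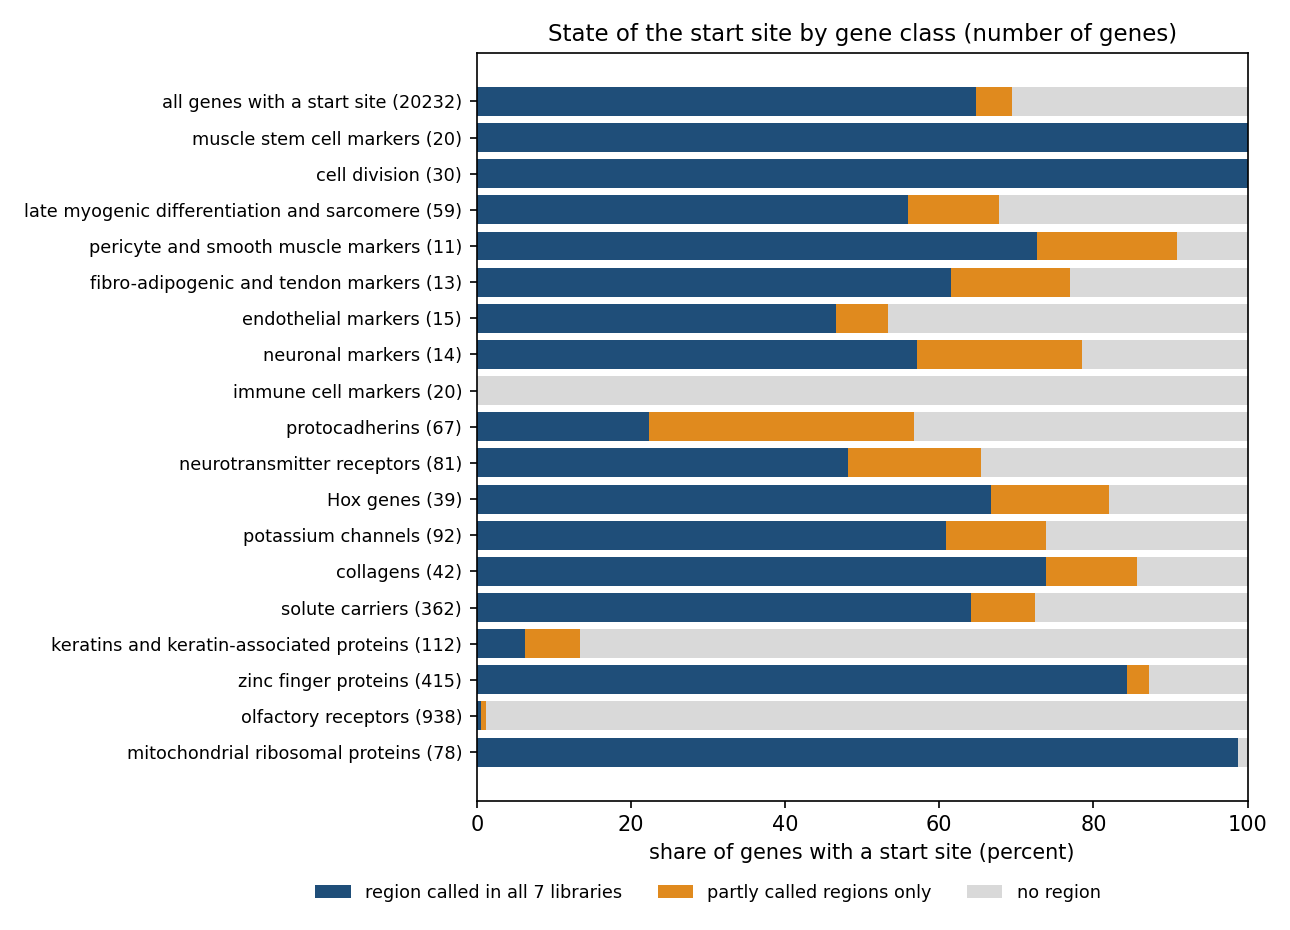
Share of genes (percent, horizontal axis) with a promoter region called in all 7 libraries (blue), with partly called regions only (orange) and with no region (grey), for all genes and 18 classes, with the number of genes in brackets. The orange share was 4.59% for all genes, 34.3% for protocadherins and 0 for MuSC markers, cell division genes, immune cell markers and mitochondrial ribosomal proteins.

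The class of late differentiation and sarcomere genes had 33 of 59 promoters called in all 7 libraries, 7 partly called (11.9%) and 19 with no region. It also held Myl6, Myl12a, Myl12b, Myl9 and Tpm4, which are not restricted to muscle fibres and were all constant. Its constant count is therefore not one of fibre genes alone. The 7 partly called genes were Myl2, Tnnt2, Ckm, Casq2, Myh8, Ttn and Myom1. Constant ones included the actin gene Acta1 and the fast myosin genes Myh1, Myh2 and Myh4, and genes with no region included the embryonic myosin gene Myh3, the slow myosin gene Myh7 and the nebulin gene Neb. The scores and calls of the partly called genes follow.

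Myl2, the regulatory myosin light chain of slow and cardiac muscle, had the highest score of the class, with a region at chr5:122092445-122093387 (mm10) over the start. Its fold enrichment was 2.93, 3.33 and 3.33 in Nedd4L-cKO replicates 1, 3 and 4 and 3.58, 3.20 and 4.09 in WT replicates 1, 2 and 3, with no peak in Nedd4L-cKO replicate 2. The values of the 2 genotypes overlapped. Tnnt2, cardiac troponin T, which is also made in immature skeletal muscle, had a region at chr1:135835218-135836485 with 3.16-, 3.46- and 3.26-fold enrichment in Nedd4L-cKO replicates 2, 3 and 4 and 3.28, 2.88 and 3.32 in the WT libraries. It lacked a peak in Nedd4L-cKO replicate 1 alone. Ckm, muscle creatine kinase, had a region at chr7:19410626-19411408 with 4.82-, 3.08- and 2.87-fold enrichment in Nedd4L-cKO replicates 1, 3 and 4 and 3.54 and 3.63 in WT replicates 1 and 2, and no peak in Nedd4L-cKO replicate 2 or WT replicate 3. The highest Ckm value thus came from a library with fewer kept tags than 5 of the others. Casq2, the calcium-binding protein of the sarcoplasmic reticulum of slow and cardiac muscle, had a region of 903 bp ending 101 bp before the start and was missed by WT replicate 2 alone. Its enrichment ranged from 2.77 to 3.76. Myh8, the perinatal myosin, was called in 5 libraries, Myom1 in 4 and Ttn, titin, in 3.

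The lists of endothelial, fibro-adipogenic, pericyte, glial and neuronal markers were short, and each had a partly called share above the 4.59% of all genes. The shares were 6.67%, 15.4%, 18.2%, 11.1% and 21.4% in that order, each resting on 1 to 3 genes. The endothelial list had Esam alone of 15 genes, the fibro-adipogenic and tendon list Dcn and Lum of 13, the pericyte and smooth muscle list Rgs5 and Cnn1 of 11, the glial list S100b of 9 and the neuronal list Elavl4, Nefm and Gad1 of 14. Each list also had constant promoters, 7, 8, 8, 5 and 8 in the same order, so a partly called promoter was not the usual state of these markers. Constant ones included Kdr, Col1a1, Pdgfrb, Pmp22 and Map2, and the markers with no region included Pecam1, Cdh5, Pdgfra, Ly6a and Sox10. No gene of the immune cell list or of the hepatocyte and gut list was partly called, and of the pluripotency and germline list Dppa3 alone was. Interleukins and their receptors, counted as a separate family, had 6 of 77 partly called (7.79%). The part that other cell types had in these calls was not tested.

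Dcn, the small proteoglycan decorin, was called in 5 libraries at chr10:97479234-97480235. Its enrichment was 3.35 and 3.36 in Nedd4L-cKO replicates 1 and 2 and 2.80, 4.20 and 3.46 in the WT libraries, with no peak in Nedd4L-cKO replicates 3 and 4, the deepest pair. Lum, the related proteoglycan lumican, was called in Nedd4L-cKO replicate 2 alone, at 2.71-fold and a score of 1.15. Esam, an endothelial adhesion molecule, was called in WT replicate 1 alone at 2.83-fold, Rgs5 in WT replicate 3 alone at 3.38-fold, and S100b in Nedd4L-cKO replicate 2 alone at 3.21-fold. Cnn1, the smooth muscle protein calponin, was called in Nedd4L-cKO replicate 4 and WT replicates 1 and 2, at 3.12-, 2.55- and 2.45-fold. Single-library markers thus came from 3 different libraries.

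Elavl4, Nefm, the medium neurofilament chain, and Gad1, which makes the transmitter GABA, were called in the same 5 libraries, Nedd4L-cKO replicates 3 and 4 and all 3 WT libraries. The enrichment of Elavl4 was 3.13 and 3.42 in the Nedd4L-cKO libraries and 3.79, 3.41 and 3.32 in the WT libraries, that of Nefm 3.42, 3.04, 3.39, 3.55 and 3.00, and that of Gad1 3.44, 2.74, 3.45, 3.20 and 3.02 in the same order. The Gad1 region ended 636 bp before the start, and the other regions covered it. Dppa3, a gene of the early embryo and germ line, was missed by Nedd4L-cKO replicate 3 alone. Its region lay 802 bp past the start and had 3.03-, 2.69- and 3.00-fold enrichment in Nedd4L-cKO replicates 1, 2 and 4 and 3.13, 4.60 and 4.44 in the WT libraries.

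The protocadherins had the largest share of partly called promoters among the classes described. Most of these adhesion genes lie in 3 clusters on chromosome 18, nearly every gene with a promoter of its own, and neurons choose among them to tell their own branches from those of other neurons. Of 67 protocadherin genes 23 (34.3%) were partly called, 15 constant and 29 without a region. The beta cluster had 10 of 22 partly called, 1 constant and 11 without a region, and the gamma cluster had 11 of 21 partly called, 5 constant and 5 without a region. The alpha cluster had none of 14 partly called, 2 constant genes (Pcdhac1 and Pcdhac2) and 12 without a region. Of the 10 protocadherins outside the clusters 2 were partly called (Pcdh12 and Pcdh15), 7 constant and 1 without a region. A library called between 6 and 13 of the 21 beta and gamma genes, with 6, 11, 9 and 13 in Nedd4L-cKO replicates 1 to 4 and 12, 6 and 11 in the WT libraries. The genotypes overlapped in these counts.

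Pcdhb16 had the highest score of the partly called protocadherins, at chr18:37477670-37478331. Its enrichment was 2.95, 4.12 and 3.58 in Nedd4L-cKO replicates 1, 2 and 4 and 4.39 and 3.10 in WT replicates 1 and 2. Pcdhga4 was called in Nedd4L-cKO replicate 2 alone, at 3.59-fold. Beta cluster genes are close copies of each other, and reads with an uncertain place were removed by the mapping quality filter, so their values are uncertain. The clusters also set the share of their chromosome: 13.3% of 347 promoter regions on chromosome 18 were partly called, the highest of the autosomes, but 72.4% of the 29 at clustered protocadherins and 7.86% of the other 318. On the other autosomes the share ran from 5.69% on chromosome 13 to 11.3% on chromosome 14. Every start used on chromosome 18 was an outer gene end, which misses inner starts, whereas most genes elsewhere had RefSeq starts. The shares of chromosome 18 and of the clustered protocadherins are therefore not strictly comparable with those of other chromosomes and classes.

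Among developmental regulators, Hox genes, which give cells their position along the body axis, had 6 of 39 partly called (15.4%), 26 constant and 7 without a region. The Hoxb cluster held 4 of the 6 and had 2 constant genes of 10, whereas Hoxa, Hoxc and Hoxd had 9 of 11, 8 of 9 and 7 of 9 constant. Hoxb5 was called in all libraries but Nedd4L-cKO replicate 3, with 4.11-, 3.05- and 2.58-fold enrichment in Nedd4L-cKO replicates 1, 2 and 4 and 2.74, 3.20 and 2.99 in the WT libraries. Hoxb13, the last gene of the cluster, was called in Nedd4L-cKO replicates 1 and 3 and WT replicate 2 at 2.92-, 3.12- and 3.49-fold. Of the secreted signals, 2 of 19 Wnt genes (Wnt3 and Wnt7a), 2 of 20 fibroblast growth factors (Fgf3 and Fgf4) and 3 of 20 BMP and GDF genes were partly called, among them Bmp3 and Bmp8b.

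Genes of excitable cells formed another part of the group. Neurotransmitter receptors had 14 of 81 partly called (17.3%), potassium channels 12 of 92 (13.01%) and sodium and calcium channels 5 of 43 (11.6%). A constant promoter was the most common state in each of these families. It was found at 48.1%, 60.9% and 65.1% of their genes in that order, against 64.8% of all genes. Htr2b, a serotonin receptor, was called in all libraries but WT replicate 3, with 3.14-, 3.01-, 4.09- and 5.01-fold enrichment in Nedd4L-cKO replicates 1 to 4 and 4.35 and 3.93 in WT replicates 1 and 2. Grin3a, a subunit of NMDA-type glutamate receptors, was called in 5 libraries at 3.40- to 4.25-fold. Kcnh6, a voltage-gated potassium channel, was missed by Nedd4L-cKO replicate 2 alone and ranged from 3.80- to 4.33-fold, and Kcna5, another one, was missed by Nedd4L-cKO replicate 1 alone and ranged from 3.08- to 4.76-fold. Scn7a, a channel related to the voltage-gated sodium channels, was missed by Nedd4L-cKO replicate 3 alone and ranged from 3.00- to 4.87-fold. The library without a peak differed between these genes. Collagens had 5 of 42 partly called (11.9%), with Col6a5 and Col20a1 the strongest, and 31 constant. Solute carriers had 30 of 362 partly called (8.29%) and 232 constant. The strongest of the partly called carriers were Slc52a3, a riboflavin transporter, and Slc18a2, the vesicular monoamine transporter.

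In other families most genes were in a single state. Zinc finger proteins had 12 of 415 partly called (2.89%) and 84.3% constant, mitochondrial ribosomal proteins 0 of 78, and cytosolic ribosomal proteins 1 of 95, the retroposed gene Rps23rg1. Olfactory receptors, which act mainly in sensory neurons, had 6 of 938 partly called (0.640%), 5 constant and 927 without a region. The strongest of the partly called ones, Olfr1386, was called in 3 libraries. Symbols of keratins and keratin-associated proteins, with Krtcap3 taken in by its spelling, had 8 of 112 partly called, led by Krtap29-1 and Krtap13-1 with 4 libraries each. Most olfactory receptor and keratin genes thus had no region, and most zinc finger and ribosomal genes were constant.

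The strongest regions at each number of libraries included genes with close copies elsewhere in the genome. Aldoart1, an intronless relative of the aldolase gene Aldoa, had the highest median score of all partly called regions, 9.70, with scores of 1.39, 8.41 and 10.99 in Nedd4L-cKO replicates 1, 3 and 4 and 11.3 in WT replicate 1, and no peak in the remaining 3 libraries. Srp54b, which encodes a subunit of the signal recognition particle and shares its region with Gm2436, scored between 6.11 and 10.3 in 6 libraries and had no peak in WT replicate 2. Zfp932 was called in WT replicate 2 alone, with a score of 6.82, a fold enrichment of 5.01 and a length of 1203 bp, and was the strongest region of a single library. Gm13288 and Gm15455 led the regions of 5 libraries, with median scores of 6.97 and 4.84. Where a near-identical copy exists it can move reads out of or into a region, so values there are uncertain. The similarity of these regions to others was not measured, and its part in these scores was not tested.

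Kcnab2, a potassium channel subunit that also had a constant promoter region elsewhere, was called in 6 libraries at chr4:152452790-152453689, with scores of 2.33, 7.25 and 9.19 in Nedd4L-cKO replicates 1, 3 and 4 and 9.54, 7.99 and 4.45 in the WT libraries. Its lowest scores were in the libraries with few tags, and Nedd4L-cKO replicate 2 had no peak. Myo7a, an unconventional myosin of hair cells, was called in Nedd4L-cKO replicates 1 and 4 and in WT replicate 2 at scores of 4.77, 3.85 and 5.90. Pgf was called in Nedd4L-cKO replicates 1 and 2 and in WT replicate 1 at scores of 6.07, 4.01 and 1.52. Hapln2 was called in Nedd4L-cKO replicates 3 and 4 and WT replicates 1 and 2, with 5.92, 5.36, 3.69 and 2.40. Mogat2, an enzyme of fat absorption, and Hddc3 were both called in Nedd4L-cKO replicate 4 and WT replicate 1 alone, and Cilp2 in Nedd4L-cKO replicate 4 alone. The longest merged region, of 3511 bp, lay beside the start of Pax5, a B cell regulator, with peaks of 2.82- to 3.09-fold in 6 libraries. The next were at D830030K20Rik, 2706 bp, and Avil, 2663 bp.

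The libraries differed in how many partly called promoter regions they called. Nedd4L-cKO replicates 1 to 4 called 436, 465, 581 and 793 of the 1192, and WT replicates 1 to 3 called 656, 629 and 534. Tags kept were 15.04, 15.08, 18.4 and 20.1 M in the Nedd4L-cKO libraries and 17.4, 17.1 and 14.4 M in the WT libraries. Over the 7 libraries, Pearson's r between calls and tags kept was 0.876 (exact permutation p = 0.0111, adjusted p = 0.0271 over 5 measures) and Spearman's rho was 0.786 (exact permutation p = 0.0480, adjusted p = 0.0800). When the libraries most distant from the median in tags (WT replicate 3 and Nedd4L-cKO replicate 4) were set aside, r was 0.834. Within the 6 libraries of lane 1 it was 0.923 (exact permutation p = 0.0125), and lane 2 held 1 library. The relation rested in part on the deepest library: without Nedd4L-cKO replicate 4, r was 0.740 (exact permutation p = 0.124).

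**Figure D4:**
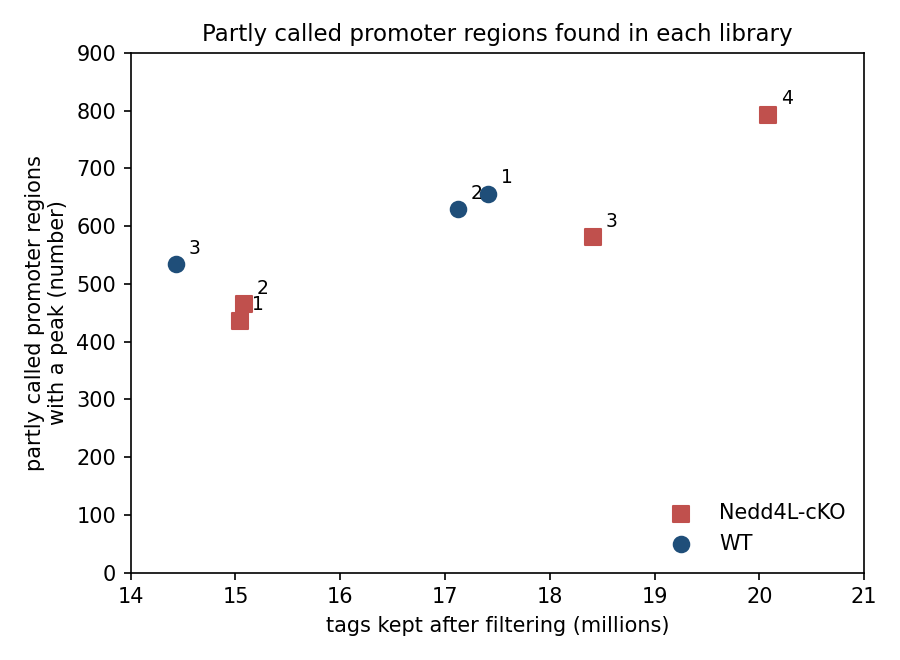
Number of the 1192 partly called promoter regions with a peak in each library (vertical axis) against the tags kept in M, 1000000 tags (horizontal axis), for Nedd4L-cKO (squares) and WT (circles) with the replicate number. Nedd4L-cKO replicate 4 had the most tags, 20.1 M, and the most calls, 793, and Nedd4L-cKO replicate 1 had the fewest calls, 436.

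The median length of the peaks in partly called regions was 441, 456, 492 and 515.5 bp in Nedd4L-cKO replicates 1 to 4 and 478, 434.5 and 438 bp in the WT libraries, and r with tags kept was 0.858 (exact permutation p = 0.0163, adjusted p = 0.0271). Spearman's rho was 0.786 (exact permutation p = 0.0480, adjusted p = 0.0800), and the shortest peaks were those of WT replicate 2, with 17.1 M tags. This relation too was weaker without Nedd4L-cKO replicate 4, with r = 0.714 (exact permutation p = 0.119). For the median score r was 0.646 (exact permutation p = 0.120) and for the median fold enrichment it was −0.307 (exact permutation p = 0.505). For calls of the partly called regions away from promoters r was 0.639 (exact permutation p = 0.105) and Spearman's rho was 0.25 (exact permutation p = 0.595). The difference from the relation of the promoter calls was not tested. When every list was limited to its best 67836 peaks, r for the promoter calls was 0.642 (exact permutation p = 0.130).

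Each library added its own regions. Of the 296 regions of a single library, Nedd4L-cKO replicates 1 to 4 gave 31, 56, 35 and 69 and the WT libraries gave 42, 29 and 34. Nedd4L-cKO replicate 2 gave more than any other library except the deepest one, and kept 15.1 M tags. Of the 262 regions of 6 libraries, the missing library was Nedd4L-cKO replicate 1 in 61, replicate 2 in 72, replicate 3 in 39 and replicate 4 in 7, and WT replicate 1, 2 or 3 in 32, 19 and 32. Nedd4L-cKO replicates 1 and 2 were thus the most frequent missing libraries.

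**Figure D5:**
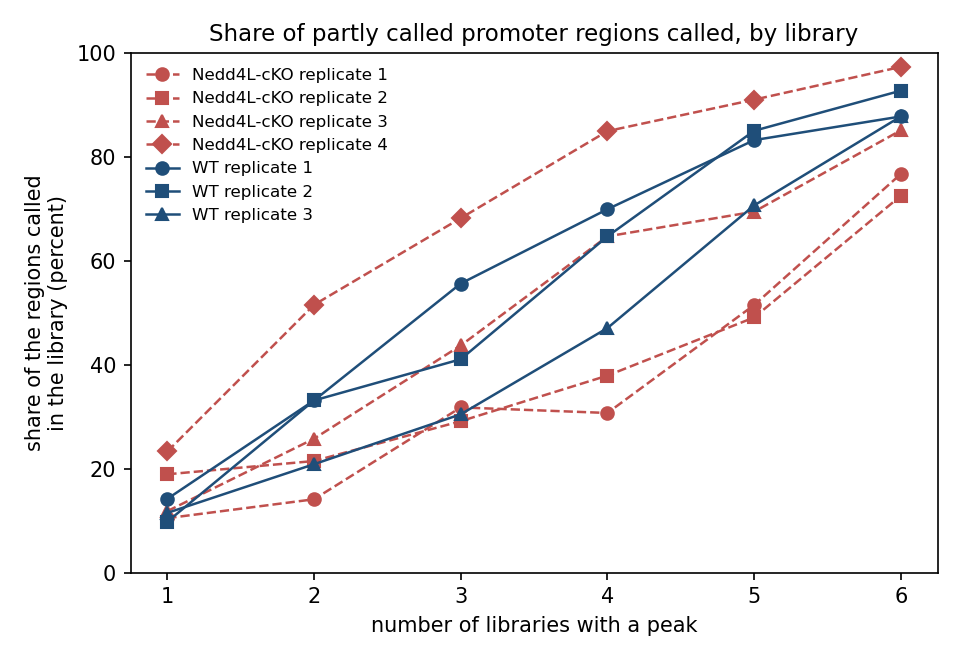
Share of the partly called promoter regions called in each library (percent, vertical axis) by the number of libraries with a peak (horizontal axis), for Nedd4L-cKO (dashed red) and WT (solid blue) replicates. Nedd4L-cKO replicate 4 was highest at every number of libraries, from 23.3% to 97.3%. The WT lines ran among the Nedd4L-cKO lines, except that WT replicate 2 was the lowest of all for regions of 1 library, at 9.80%.

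None of 5 measures over these regions passed the exact test between the genotypes. Nedd4L-cKO libraries called 569 ± 162 regions (SD, n = 4) and WT libraries 606 ± 64.1 (SD, n = 3), a difference smaller than the spread between replicates (exact permutation p = 0.743, two-sided, of a smallest possible 0.0286). As a share of the promoter peaks of a library the regions made up 4.30% ± 1.17 and 4.58% ± 0.473 (exact permutation p = 0.743). The median score of the peaks was 2.07 ± 0.127 and 2.23 ± 0.215 (exact permutation p = 0.314), and their median length 476 ± 33.9 bp and 450 ± 24.2 bp (exact permutation p = 0.314). The median fold enrichment was 2.96 ± 0.0566 in Nedd4L-cKO and 3.07 ± 0.0228 in WT (exact permutation p = 0.0571, adjusted p = 0.286 over 5 measures). In single libraries it was 2.98, 2.97, 3.02 and 2.89 against 3.07, 3.09 and 3.04, so every WT median was above every Nedd4L-cKO median.

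Of the 1192 regions, 818 (68.6%) had a peak in at least 1 library of each genotype, 246 (20.6%) had peaks in Nedd4L-cKO libraries only and 128 (10.7%) in WT libraries only. Of all 41014 partly called regions the same shares were 58.6%, 28.6% and 12.8%. A higher share of the Nedd4L-cKO libraries than of the WT libraries called 546 regions (45.8%), against 52.4% of all partly called regions, and the reverse held for 646. Regions shared by a pair of libraries, as a share of those called by either, ranged from 0.274 to 0.539 for pairs of the same genotype and from 0.299 to 0.566 for pairs of different genotypes.

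Complete separation of the genotypes was rare. A region called in all 4 Nedd4L-cKO libraries and no WT library occurred once among the 1192, at Hamp2, against a background of 0.158% of all 41014 partly called regions. Regions called in all 3 WT libraries and no Nedd4L-cKO library occurred 4 times (0.336%), at BC016579, L1td1, Thsd4 and Ablim1, against a background of 0.185%. In either direction the background was 0.344%. With 4 against 3 libraries Fisher's exact p cannot go below 0.0286, the value of complete separation, so no region could have passed adjustment over the 41014 regions here, of which 141 reached that p (adjusted p = 1), and the counts are a description.

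Hamp2, a relative of the iron hormone hepcidin, had its region at chr7:30924468-30924968, 287 bp before the start, with 3.23-, 3.28-, 3.21- and 3.62-fold enrichment in Nedd4L-cKO replicates 1 to 4. BC016579 had 2.95-, 3.06- and 3.21-fold in the WT libraries, L1td1, a gene derived from a LINE-1 element, 2.91, 3.14 and 3.15, and Thsd4, a gene of microfibril assembly, 2.61, 2.75 and 3.13. Ablim1, an actin-binding protein, was outside the rule for named genes and is given because the count is small, with 2.50, 2.30 and 2.47. Scores in these 5 regions ran from 1.162 to 3.29, near the threshold of the caller, and Thsd4 and Ablim1 also had a promoter region called in all 7 libraries.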

How the data were processed

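ATAC-seq was performed on 7 libraries of 5000 sorted MuSCs each (4 Nedd4L-cKO and 3 WT), grouped by the genotype in the labels. The authors trimmed reads with Trimmomatic 0.39, aligned pairs to mm10 with BWA-MEM 0.7.17, kept reads of mapping quality above 30 with SAMtools and removed duplicates with Picard 2.26.3. Peaks were called by the authors with MACS2 2.2.7.1 in each library alone without a control, with a shift of -100, an extension of 200 and broad peaks at q = 0.1 around narrow peaks at q = 0.05. Per the file headers the caller took single tags of 151 bp and kept 1 tag per position, so tags kept is the measure of depth. A peak exists only above the threshold, so the lists hold no value for a library without a peak, and a deeper library can pass the threshold with a weaker enrichment.

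The deposited lists give for each peak the fold enrichment over the local background, the −log10 of the q-value, the tag pileup (a signal) and a display score, which was not used. Fold enrichment, pileup and −log10 q of a broad peak are means over the peak as the authors' caller wrote them.

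Peaks of the 19 autosomes were merged with pandas 2.3.3 and numpy 2.4.6 (overlap of 1 bp or more). Of 20665 protein-coding RefSeq genes, 20232 had a start site: 16457 had the starts of the RefSeq promoter table (GRCm38.p6, the assembly of mm10), and for 3775, including all of chromosome 18, the outer end of the gene on its annotated strand was used, which misses inner starts. Motifs and CpG were computed over the 300 bases of the promoter table. Values per library were compared by exact permutation over all 35 splits, calls per region by Fisher's exact test with Benjamini-Hochberg adjustment over 41014 regions, and relations to tags kept by exact permutation (scipy 1.17.1). Region values are medians over the calling libraries. Alternatives were stricter peaks, cover of the merged region, other windows, equal numbers of peaks, narrow peaks, genes without a constant region, outer gene ends for all genes, the peak itself at the start, lane 1 alone and each library left out.

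Genes were named by rule: in each marker list and in the sarcomere class up to 4 genes with partly called regions only, by the highest median −log10 q; for each number of libraries the 2 highest regions; up to 3 regions per direction that separate the genotypes; the 3 longest regions; and up to 2 genes in each family described. Others are named as counts require. The regions, lists and tests were chosen with earlier results of these data known.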

Additional observations from a re-analysis of the deposited data

How the results depend on the processing

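Partly called regions numbered 1192, and 1669 with scores of at least 5, 2381 when a peak had to cover 50% of the region, 868 and 2142 with windows of 250 and 2500 bp, 1208 with equal numbers of peaks, 1258 with narrow peaks, 950 without genes that had a constant region, 1002 with outer gene ends and 1374 with the peak itself at the start. Genes with partly called regions only numbered 928, and 1508 with scores of at least 5 and 1998 with 50% cover. The low CpG share of 55.2% was 32.9% with scores of at least 5, 45.0% with 50% cover, 49.6% and 61.6% with windows of 250 and 2500 bp, 49.9% with narrow peaks and 51.2% with outer gene ends, while over all these settings it was between 9.10% and 16.9% of constant and between 78.4% and 87.8% of uncalled starts. The cause of these changes was not tested.

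The difference in fold enrichment (Nedd4L-cKO minus WT), −0.104 at exact permutation p = 0.0571, was negative in every alternative run, some of which use the same libraries (lane 1 alone is the set without WT replicate 3), and reached exact permutation p = 0.0286, the smallest possible, at −0.112 with 50% cover, −0.0917 with a window of 2500 bp, −0.138 with outer gene ends and −0.108 with the peak itself at the start, with p up to 0.486 elsewhere. The difference in calls, −37.6 regions, ran from −112 to 6.67 when each library was left out, and that in share of promoter peaks, −0.282 percentage points, from −0.819 to 0.0415. Both were reversed without Nedd4L-cKO replicate 1, and exact permutation p for calls was at least 0.200 throughout.

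Regions called in all Nedd4L-cKO and no WT libraries numbered 1. They numbered 0 with scores of at least 5 or a window of 250 bp, 2 with equal numbers of peaks or the peak itself at the start, and 5 with 50% cover, a window of 2500 bp or lane 1 alone. Regions called in all WT and no Nedd4L-cKO libraries numbered 4. They numbered 2 with scores of at least 5, without genes that had a constant region or with outer gene ends, 8 with 50% cover and 13 with lane 1 alone. With each library left out the counts ran from 1 to 7 and from 4 to 14, since fewer libraries have to agree.

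The relation of calls to tags kept, r = 0.876, ran from 0.740 to 0.938 with each library left out and was 0.642 with equal numbers of peaks and 0.754 with narrow peaks, where exact permutation p was above 0.05. The relation of fold enrichment to tags kept, r = −0.307, ran from −0.448 to 0.508 with each library left out and was 0.275 with equal numbers of peaks, so its direction is not settled.

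Replicate numbers 1 to 3 occur in both genotypes. Deviations from the group means over the 12466 constant promoter regions correlated at −0.127, 0.0099 and −0.0679 for equal numbers, so the numbers were not read as pairs. With the replicate number as a block, the differences were −112 regions, −0.819 percentage points, −0.206 in score, −0.0782 in fold enrichment and 12.8 bp in length, with exact sign permutation p between 0.25 and 0.75, and 0.25 is the smallest possible. No call changed. The number of libraries and tags kept limit what can be seen: a promoter just under the threshold cannot be told from one without insertions.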
